A study of Mus musculus with 36 samples.

Results

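Intronic Ago2 peaks are short stretches of RNA that were crosslinked to Argonaute 2 and that the study's annotation places in an intron. They were taken as every peak annotated as intronic, which gave 921 of the 7585 annotated peaks, among 7730 merged peaks in all. No measured value entered that choice. The annotation held 2440 exonic and 3761 3' UTR peaks, which serve here as the comparison. The peaks come from Halo-enhanced Ago2 pulldown, a CLIP-type assay in which Ago2 fused to a HaloTag is captured covalently after UV crosslinking, so that the RNA bound to it can be sequenced. The 12 tumours were colonic tumours of mice in 2 groups of 6. The G12D tumours carried Halo-Ago2/+, Villin-CreER/+, Apc(fl/fl) and K-Ras-G12D/+, and the WT tumours carried Halo-Ago2/+, Villin-CreER/+ and Apc(fl/fl) with wild-type K-Ras. Tumours of both groups were induced at 8 to 12 weeks of age with an enema of 200 µl of 4-hydroxytamoxifen at 5 mg/ml. Both groups therefore shared the tagged Ago2, the loss of Apc and a Cre that is driven in gut epithelium by the Villin promoter. Each genotype had 3 tumours in batch 1 (replicates 1 to 3) and 3 in batch 2 (replicates 4 to 6), as the labels name the batches.

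Argonaute 2 holds a mature microRNA and finds RNA through the seed, the bases near the 5' end of the microRNA that pair with a complementary site. Most described sites lie in 3' UTRs of mature mRNA in the cytoplasm, while introns are normally removed in the nucleus, and Argonaute proteins have been found there as well. An intronic peak can lie in unspliced RNA, in a retained intron or in a transcript that the annotation does not hold, and these cannot be told apart in these values. In bulk tumours, fewer cells of a type and less RNA per cell also cannot be told apart, and a peak's value mixes the amount of its RNA with its binding to Ago2.

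The authors' annotation lists the microRNA seed sites in each peak, and 6 seed families had the most intronic peaks. Their mature sequences, from RefSeq with GRCm38.p6 coordinates, are shown because the site families below turn on them. Capitals mark the seed, bases 2 to 8, and members of a family share it.
let-7a-5p: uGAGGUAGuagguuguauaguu
let-7i-5p: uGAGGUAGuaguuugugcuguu
miR-98-5p: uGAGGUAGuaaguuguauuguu
miR-17-5p: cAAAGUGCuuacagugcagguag
miR-20a-5p: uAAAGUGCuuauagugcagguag
miR-93-5p: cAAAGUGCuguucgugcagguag
miR-194-5p: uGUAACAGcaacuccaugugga
miR-29a-3p: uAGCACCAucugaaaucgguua
miR-200b-3p: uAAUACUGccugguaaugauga
miR-200c-3p: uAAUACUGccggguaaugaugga
miR-429-3p: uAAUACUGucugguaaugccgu
miR-15a-5p: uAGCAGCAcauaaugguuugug
miR-16-5p: uAGCAGCAcguaaauauuggcg
In the order of the families, a site in the target reads CUACCUC for let-7, GCACUUU for miR-17, CUGUUAC for miR-194, UGGUGCU for miR-29, CAGUAUU for miR-200b, miR-200c and miR-429, and UGCUGCU for miR-15 and miR-16. The miR-29 and miR-15 seeds begin with the same bases, AGCA, and differ after them.

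Let-7 and miR-98 sites were the most frequent in introns, in 125 of 921 peaks (13.6%), and 73 of these 125 peaks held the longest form, the 8mer. Let-7 is known for restraining growth and stem-cell genes. The share was close to that of exonic peaks (13%) and above that of 3' UTR peaks (7.5%). Sites of the miR-17 family (with miR-20 and miR-93), whose members include products of the growth-promoting miR-17-92 cluster, lay in 86 intronic peaks (9.34%, 95% Wilson interval 7.62 to 11.4), against 3.52% of exonic peaks (2.86 to 4.33) and 6.17% of 3' UTR peaks (5.44 to 6.98). Sites of miR-194-5p, a microRNA of the gut and liver epithelium, lay in 85 intronic peaks (9.23%, 7.53 to 11.3), against 3.40% of exonic peaks (2.75 to 4.20) and 4.15% of 3' UTR peaks (3.56 to 4.83). For both families the intronic interval lay above the intervals of the other regions. These intervals cover counting error only, since peaks of 1 gene and overlapping sites are not independent.

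The miR-29 family, known for targeting collagen genes, had sites in 72 intronic peaks (7.82%), and the miR-200 family (with miR-429), which guards the epithelial state by repressing Zeb1 and Zeb2, had sites in 64 (6.95%). Exonic peaks held these sites in 4.88% and 4.75% of cases, and 3' UTR peaks in 6.12% and 6.06%. The miR-15/16 family had sites in 50 intronic peaks (5.43%), below its 7.01% of exonic and 6.01% of 3' UTR peaks. A site of at least 1 of the 6 families was annotated in 451 intronic peaks (49.0%, 45.8 to 52.2), against 34.3% of exonic and 33.6% of 3' UTR peaks. The 6 families were picked for their intronic counts, so this higher share follows in part from that choice. The next family, miR-26, had sites in 47 intronic peaks (5.10%, 3.86 to 6.72), against 2.83% of exonic and 3.00% of 3' UTR peaks. It was followed by miR-21-3p with 39 intronic peaks, miR-24 with 34 and miR-196 with 30. Families were counted by sites of 7 bases or more.

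**Figure D1:**
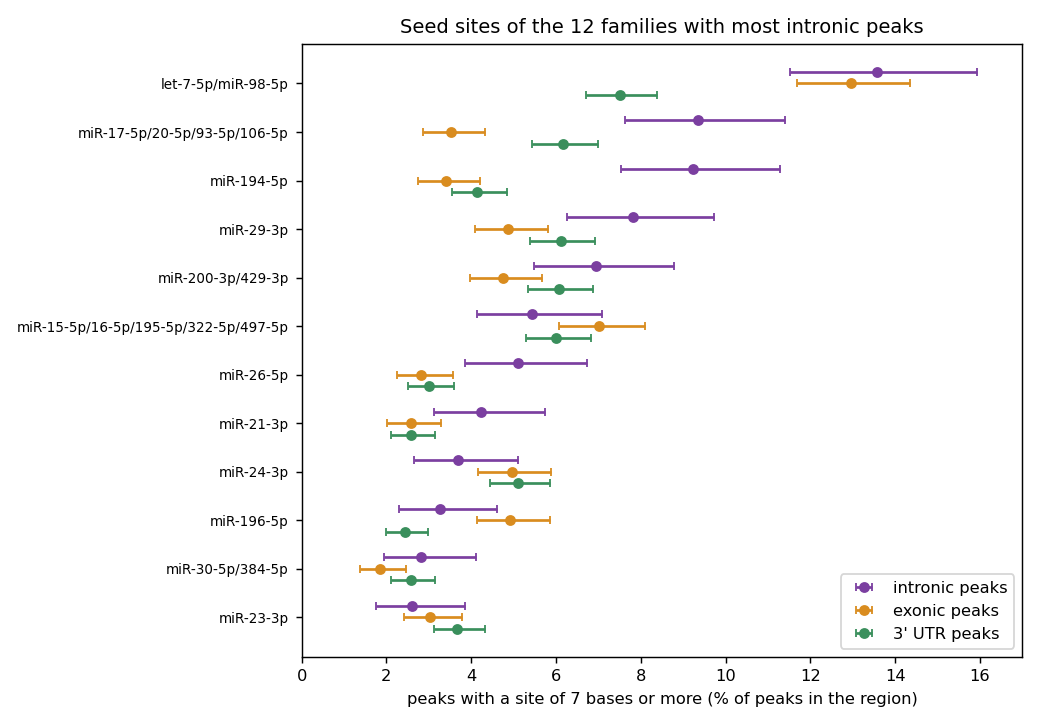
Share of peaks (x axis, percent) with an annotated seed site of 7 bases or more, for the 12 families with most intronic peaks (rows), in intronic, exonic and 3' UTR peaks, with 95% Wilson intervals as bars. The miR-17 family and miR-194-5p points for introns (9.34% and 9.23%) lie clear of the other regions.

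The order of the families did not always follow the amount of microRNA on Ago2, read here from single microRNAs without summing over a family. The most abundant microRNA in the deposited miRNA table was miR-21a-5p, with a mean of 21315 normalised counts over the 12 miRNA libraries, and its seed had sites in 9 intronic peaks (0.977%). MiR-200c-3p was second at 14550, and its family had the 64 intronic peaks given above. MiR-27a-3p, the third most abundant at 14034, had a family site in 13 intronic peaks (1.41%). MiR-194-5p was next at 13087, with its 85 peaks, and then miR-26a-5p at 12798, with 47. In all, 80 families had at least 1 intronic site, 362 intronic peaks held sites of 1 family and 308 held sites of 2 or more.

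By their best site, 326 intronic peaks (35.4%, 32.4 to 38.5) held an 8mer, 269 (29.2%) a 7mer-m8, 75 (8.14%) a 7mer-A1 and 99 (10.7%) a 6mer alone. The remaining 152 intronic peaks (16.5%, 14.2 to 19.0) had no annotated site, against 10.7% of exonic (9.57 to 12.0) and 10.6% of 3' UTR peaks. The mean value of a peak ran with the strength of its site, as a description across peaks that share libraries. The median over intronic peaks was 17 normalised counts with an 8mer, 16.9 with a 7mer-m8, 14.4 with a 7mer-A1, 13.3 with a 6mer alone and 11.7 with no site.

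The intronic peaks lay in 698 genes. Of the 921 peaks, 881 (95.7%) had a host gene that matched RefSeq, and 876 lay within the RefSeq span of that gene. The host was protein-coding for 874 peaks, a lncRNA for 4, a transcribed pseudogene for 2 and a pseudogene for 1. No intronic peak overlapped an annotated microRNA hairpin or a small RNA gene such as a snoRNA, while 54 overlapped another lncRNA gene on either strand. Within 1000 bases, 1 peak had a hairpin, the Ddx39b peak 472 bases from Mir8094, and 3 had a small RNA gene, in Nif3l1, Slmap and Cep295.

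The hosts were long genes. Their median length was 78.8 kb (quartiles 39.8 and 147), against 33.4 kb for hosts of exonic and 29.6 kb for hosts of 3' UTR peaks. Within the host, intronic peaks leaned towards the 5' side. From the 5' end to the 3' end, successive bins of 20% of the gene's length held 26.0%, 22.6%, 21.5%, 19.4% and 10.5% of 876 intronic peaks. Exonic peaks ran the other way, with 9.66% in the 5'-most bin and 30.6% in the 3'-most, and 86.1% of 3' UTR peaks lay in the 3'-most bin.

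**Figure D2:**
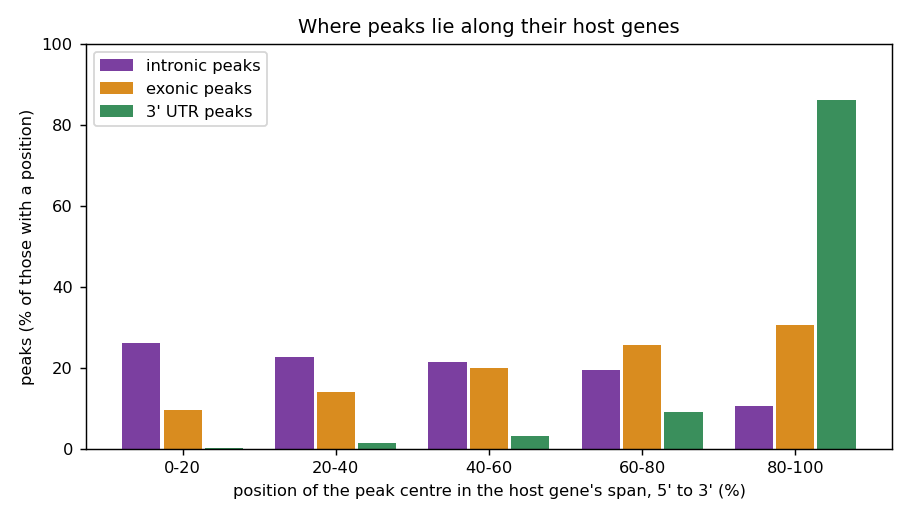
Position of peaks along the host gene (x axis, bins of 20% of its length from the 5' end to the 3' end) against the share of peaks (y axis, percent), for intronic, exonic and 3' UTR peaks. Intronic peaks decline from 26.0% to 10.5%, while 86.1% of 3' UTR peaks sit in the last bin.

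Of the 698 hosts, 396 (56.7%) also had a peak in another region and 302 had intronic peaks alone. An exonic peak was present in 212 hosts and a 3' UTR peak in 267. Most hosts, 554, had a single intronic peak, and 144 genes with 2 or more held 367 of the peaks. The mean was 1.32 intronic peaks per host, against 1.46 exonic and 1.64 3' UTR peaks per gene that had any. The 223 pairs of neighbouring intronic peaks within a gene were a median of 16.7 kb apart. Only 8 pairs lay within 100 bases, in Acvr1b, Cmip, Sh3d19, Rere, Tcf7l2, AC130827.2 and, with 2 pairs, RP24-342G5.6.

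Mecom, which encodes a zinc finger transcription factor, had 9 intronic peaks over 366 kb, the most of any gene. Their means ran from 8.12 to 28.1 normalised counts, and 4 of the 9 held a site of 7 bases or more. Gmds, an enzyme of GDP-fucose synthesis, had 6 over 374 kb, and Ctnna1, the α-catenin that ties cadherins to actin, also had 6. Tcf7l2, the transcription factor through which Wnt signals act in gut epithelium, had 5 over 77.1 kb, all 5 with a site of 7 bases or more. Fut8, the core fucosyltransferase, had 5 with means up to 16.3. Plekha6 had 5, with means from 7.62 to 32.8. The unnamed loci AC130827.2 and RP23-468D17.1 had 6 and 5. None of the peaks in these 8 genes reached a mean of 50.

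Depth differed between tumours. The 12 mRNA libraries held 30607 reads in peaks in WT replicate 5, 57037 in WT replicate 6 and between 125384 and 974013 in the other 10, and each normalised count stood for a whole number of reads (1 read was worth 0.482 to 4.53 normalised counts). In WT replicates 5 and 6, 73.5% and 53.0% of intronic peaks were at 0, against 0.109% to 14.8% in the other libraries. Values from these 2 libraries, both WT of batch 2, are therefore coarse, and the main genotype results are also given without them. Of the 12 intronic peaks with a mean of at least 20 named below for a DESeq2 call, 2 were also called without them, those in Plekha6 and Xpo7.

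Intronic peaks were mostly low, and a few were very high. The median of their means over the 12 tumours was 15.3 normalised counts (quartiles 11.1 and 23.5), against 19.6 for exonic and 19.4 for 3' UTR peaks. A mean of 50 or more was reached by 57 intronic peaks (6.19%), against 19.4% of exonic and 16.8% of 3' UTR peaks. A mean of 100 or more was reached by 12 (1.30%), against 9.92% and 7.13%. The peaks' widths did not separate the regions, with medians of 55 bases in introns, 55 in exons and 58 in 3' UTRs. The 2 highest intronic peaks held 24.1% of all intronic signal and the 12 highest held 31.9%.

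The highest intronic peak lay in Gphn (chr12:78351067-78351125, mm10, plus strand), whose product gephyrin clusters inhibitory receptors at synapses and makes molybdenum cofactor. It had 2397, 3475 and 4938 normalised counts as the lowest, median and highest G12D tumour, against 1608, 3299 and 19474 in WT tumours. The groups overlapped, and the highest WT value belonged to the shallowest library, WT replicate 5. The peak had no annotated seed site, and the single exonic peak of Gphn had a mean of 21.2. The second, in Gm26561 (chr17:70963722-70963789, plus strand), also had no seed site and had 1184, 1405 and 1675 in G12D tumours, against 598, 1557 and 4349 in WT tumours. It overlapped between the groups as well.

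The third, in RP24-342G5.6 (chr12:99645448-99645498, plus strand), a locus with no RefSeq match, had 28.5, 242 and 1595 in G12D tumours, against 12.7, 113 and 1853 in WT tumours. Its values divided by batch, with every batch 2 tumour above every batch 1 tumour. The batch 2 means were 927 in G12D and 923 in WT tumours, against batch 1 means of 74.9 in G12D and 20.7 in WT tumours. The high batch 2 WT values were 1853 and 721, in WT replicates 5 and 6. WT replicate 4 had 196, below the batch 2 G12D range of 326 to 1595. Without WT replicates 5 and 6, DESeq2 called this peak higher in G12D (log2 fold change 1.99, adjusted p = 0.0323). A second peak of the locus, at chr12:99645326, was also among the 12 highest, with a mean of 130.

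Of the 12 highest peaks, 4 carried a miR-194-5p site. The highest was in Twf1, a twinfilin that binds actin monomers (chr15:94588547-94588598, minus strand), with 275, 418 and 611 in G12D tumours, against 14.5, 268 and 423 in WT tumours. In Zfp148, a zinc finger transcription factor (chr16:33382056-33382117, plus strand), the peak had 78.6, 468 and 651 in G12D tumours, against 0, 80.3 and 376 in WT tumours. The G12D medians of both were above the WT medians, and the groups overlapped. The G12D values of Zfp148 divided by batch, with 78.6 to 338 in batch 1 and 599 to 651 in batch 2. Those of Twf1 overlapped between the batches. The others were in Rere, a nuclear corepressor of the atrophin family (chr4:150301381-150301432, plus strand), with 53.2, 248 and 562 in G12D tumours, against 4.53, 27.4 and 288 in WT tumours, and in Tet3, which oxidises 5-methylcytosine. The Tet3 peak had 53.6, 191 and 351 in G12D tumours, against 9.06, 55.0 and 247 in WT tumours. The G12D values of both divided by batch. Rere had 53.2 to 116 in batch 1 and 380 to 562 in batch 2, and Tet3 had 53.6 to 164 and 218 to 351. The G12D medians of Zfp148, Rere and Tet3 therefore lay between the batches.

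For these hosts the intronic peak could be the highest of the gene. The Zfp148 intronic peak had a mean of 261, against 13.2 for the gene's 3' UTR peak, and the Rere intronic peak had 175, against 38.6 for its highest exonic peak. In Tet3 the order turned, with 136 for the intronic peak, 249 for the highest exonic and 131 for the highest 3' UTR peak. Twf1 and Upf1 had no annotated exonic or 3' UTR peak.

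Let-7 sites marked 2 of the 12. In Upf1, the RNA helicase of nonsense-mediated decay (chr8:70333617-70333670, minus strand), the peak had 109, 237 and 517 in G12D tumours, against 4.53, 85.9 and 421 in WT tumours. In Kif13b, a kinesin motor, it had 65.8, 165 and 307 in G12D tumours, against 2.41, 118 and 253 in WT tumours. A miR-29 site marked Xpo7, a nuclear transport receptor, with 21.4, 174 and 332 in G12D tumours, against 0, 21.9 and 57.8 in WT tumours. Tspan14, a tetraspanin that partners the protease ADAM10, had 4.34, 235 and 331 in G12D tumours, against 0, 13.1 and 79.5 in WT tumours. All of these overlapped between the groups. The G12D values of Upf1 divided by batch (109 to 192 in batch 1, 282 to 517 in batch 2). So did those of Xpo7 (21.4 to 144, then 205 to 332). Kif13b divided the other way (187 to 307, then 65.8 to 144), and the batches of Tspan14 overlapped. Of the 57 intronic peaks with a mean of at least 50, 47 had a site of 7 bases or more, 11 had a miR-194-5p site and 10 a let-7 site.

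**Figure D3:**
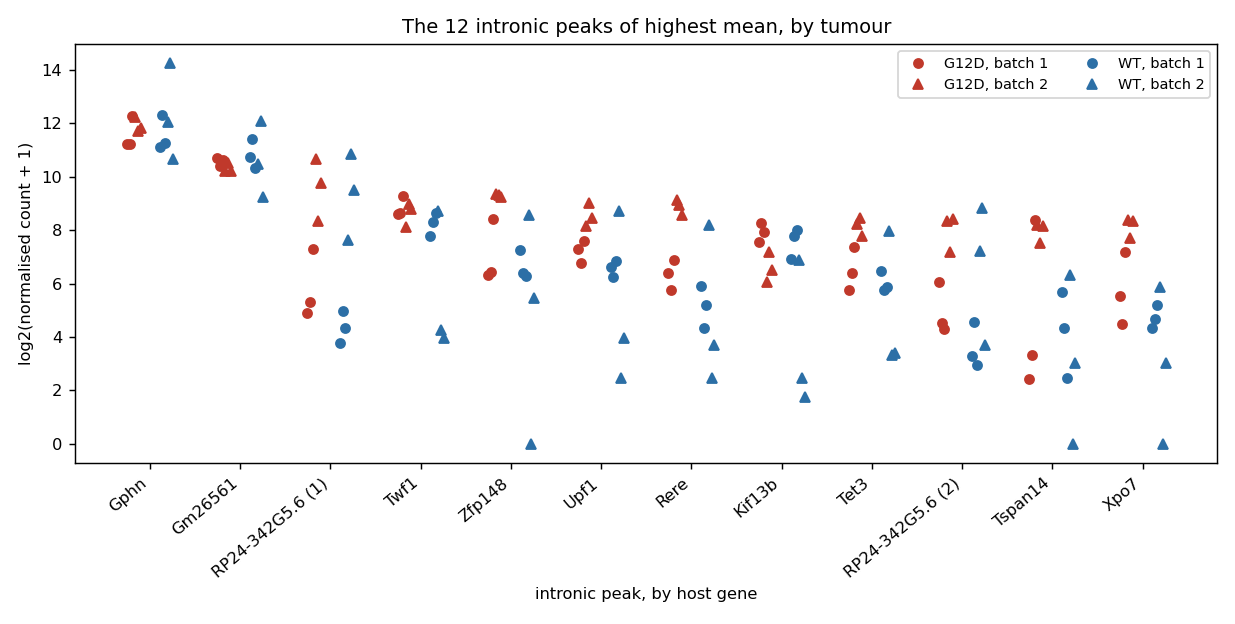
Log2(normalised count + 1) (y axis) of the 12 intronic peaks with the highest means (x axis), 1 point per tumour, G12D left of WT, with symbols for the batches. The Gphn and Gm26561 peaks are the highest in most tumours, and the higher of the RP24-342G5.6 peaks divides by batch.

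The highest peaks of the remaining leading families were lower. For the miR-17 family it was in Spin1, a reader of histone methylation, with a mean of 96.7, and for the miR-200 family (with miR-429) in Dync1h1, the dynein heavy chain, with 82.5. For the miR-15/16 family it was in Acvr1b, an activin receptor, with 40.8. That Acvr1b peak lay 23 bases from another, which had a mean of 38.7 and 4 annotated sites of the miR-15/16 family.

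Intronic signal was below exonic and 3' UTR signal in most tumours. In each library the median over intronic peaks of log2(value + 1) was set against that over exonic peaks, and the difference averaged -0.62 ± 0.72 (SD, n = 12 tumours, below 0 in 10 of 12, exact sign-flip permutation p = 0.00195, adjusted over 4 ratios 0.00195). Against 3' UTR peaks it averaged -0.56 ± 0.53 (below 0 in 10 of 12, exact permutation p = 0.00195, adjusted 0.00195). Against exons it was -0.68 in batch 1 and -0.56 in batch 2, where WT replicate 6 alone was at -2.54. Without that library the batch 2 mean was -0.16 (below 0 in 4 of 5), and against 3' UTR peaks it was -0.17, against -0.44 with it, a check added after seeing the data. G12D replicate 3, where the medians were 16.2, 16.2 and 16.2 for intronic, exonic and 3' UTR peaks, and WT replicate 5, where all 3 were 0, gave no difference.

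The same was seen within genes. In the 212 genes with intronic and exonic peaks, the median log2 difference of intronic from exonic signal was -0.63 ± 0.47 (n = 12 tumours, below 0 in 10 of 12, exact permutation p = 0.00195, adjusted 0.00195). In the 267 genes with intronic and 3' UTR peaks it was -0.62 ± 0.38 (below 0 in 11 of 12, exact permutation p = 0.000977, adjusted 0.00195). For the 3' UTR, batch 1 gave -0.83 and batch 2 -0.41, and for exons batch 1 gave -0.79 and batch 2 -0.47. Without WT replicate 6 the batch 2 values were -0.29 and -0.30. Over the tumours' means, the intronic value was the lower in 124 of 212 genes against exons (58.5%) and in 175 of 267 against 3' UTRs (65.5%), so in many genes the intronic peak was the higher. All tests were two-sided.

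**Figure D4:**
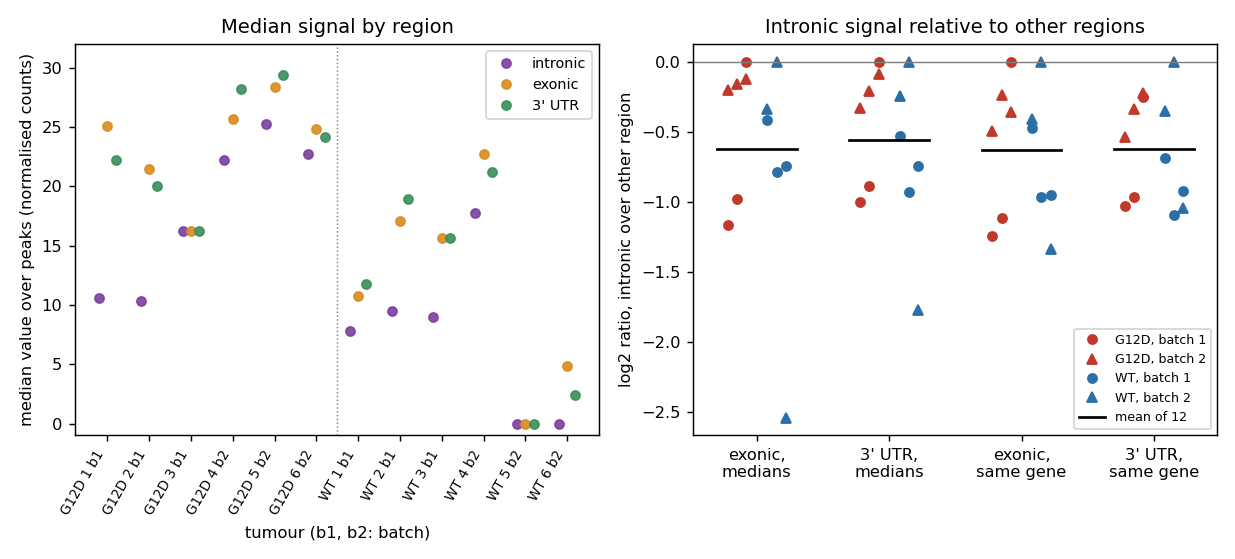
Left: median normalised count per tumour (y axis) for intronic, exonic and 3' UTR peaks, with tumours on the x axis, G12D left of WT and b1 or b2 for the batch. Right: the log2 differences of intronic signal from exonic and 3' UTR signal, over all peaks and within genes, 1 point per tumour with the mean. Intronic medians are below the others in most tumours and equal to them in G12D replicate 3 and WT replicate 5.

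Intronic peaks varied more between tumours. The coefficient of variation over 12 tumours had a median of 96.7% in introns, against 76.3% in exons and 74.1% in 3' UTRs. Among peaks with a mean from 10 to 20 it was 95.0%, against 74.4% and 72.2%, so the difference was also present at like levels. Without WT replicates 5 and 6 the medians were 82.3%, 61.3% and 59.3%. A read was present in all 12 tumours for 107 intronic peaks (11.6%), against 32.9% of exonic and 34.9% of 3' UTR peaks. In the 10 deeper libraries these shares were 75.2%, 88.2% and 94.3%.

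Among peaks with a mean of at least 50, the steadiest included Twf1 (53.8%), Prss32, a serine protease (55.7%), Gm26561 (56.4%), Nipsnap1 (57.4%) and Arid2, a chromatin remodelling subunit (60.2%). The most variable were B3galt5, a galactosyltransferase (137%), RP24-342G5.6 (132.5%), RP23-32A8.1 (126%), Tspan14 (123%), Abcc3, an organic anion transporter (122%), and Xpo7 (120%). B3galt5 and RP23-32A8.1 had means that differed between the batches. Within each genotype the B3galt5 ranges of the batches did not overlap, while those of RP23-32A8.1 overlapped in G12D tumours alone. B3galt5 had batch 2 means of 123 in G12D and 111 in WT tumours, against batch 1 means of 14.2 in G12D and 8.53 in WT tumours. RP23-32A8.1 went the other way, with 4.65 in G12D and 8.42 in WT tumours of batch 2, against 85.4 in G12D and 105 in WT tumours of batch 1. In all, 341 intronic peaks (37.0%) had every batch 2 G12D library above every batch 1 G12D library, against 33.4% of exonic and 38.5% of 3' UTR peaks.

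The authors deposited 1 peak list per genotype. Of the intronic peaks, 910 (98.8%) were in the G12D list and 115 (12.5%, 10.5 to 14.8) in the WT list, with 104 in both. Exonic peaks were in the WT list in 33.0% of cases and 3' UTR peaks in 29.3%. With 1 list per genotype and the 2 shallowest libraries among the WT tumours, the part of depth in this difference was not tested. Absence from the WT list did not always mean low WT signal. The Gphn and Gm26561 peaks were in the G12D list alone, with WT medians of 3299 and 1557 and G12D medians of 3475 and 1405.

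The genotype comparison asked which intronic peaks differed between G12D and WT tumours. With limma on log2(value + 1) and batch as a covariate, 0 of 921 intronic peaks passed an adjusted p of 0.05, as did 0% of all 7527 tested peaks, and the smallest adjusted p among intronic peaks was 0.108. At an unadjusted p under 0.05, 363 were higher and 0 lower in G12D, against 35.9% and 0.173% of all tested peaks. The median log2 fold change was 1.47 for intronic peaks and 1.33 for all tested peaks, and 879 of 921 intronic peaks (95.4%) were above 0, against 96.1% of all. Both depended on the scaling. With libraries centred on the median peak, 15 intronic peaks (1.63%) were higher and 58 (6.30%) lower at an unadjusted p under 0.05. Of all tested peaks, 1.93% were higher and 6.97% lower. Above 0 were 414 intronic peaks (45.0%), against 34.5% of all, and the intronic median was -0.10, against -0.24 for all. In WT replicate 5, 59.8% of merged peaks were at 0, so its median peak was 0 and centring cannot correct its scaling. With edgeR and TMM scaling, 45 intronic peaks (4.89%) were higher and 24 (2.61%) lower, against 4.17% and 3.61% of all tested peaks. Above 0 were 575 intronic peaks (62.4%), against 59.0% of all, and the intronic median was 0.19, against 0.12 for all. Neither scaling gave an intronic peak past the adjusted threshold. Without WT replicates 5 and 6 the medians were 0.40 and 0.38. Batch 1 alone gave 0.48 and 0.43, and batch 2 alone, which holds those libraries, gave 2.60 and 2.29. Of the 921 intronic peaks, 806 were in the authors' G12D list alone and 11 in the WT list alone. Most peaks therefore entered the set through the G12D tumours, so the one-sided counts and medians are not independent of how peaks were found. The size of that part was not tested.

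**Figure D5:**
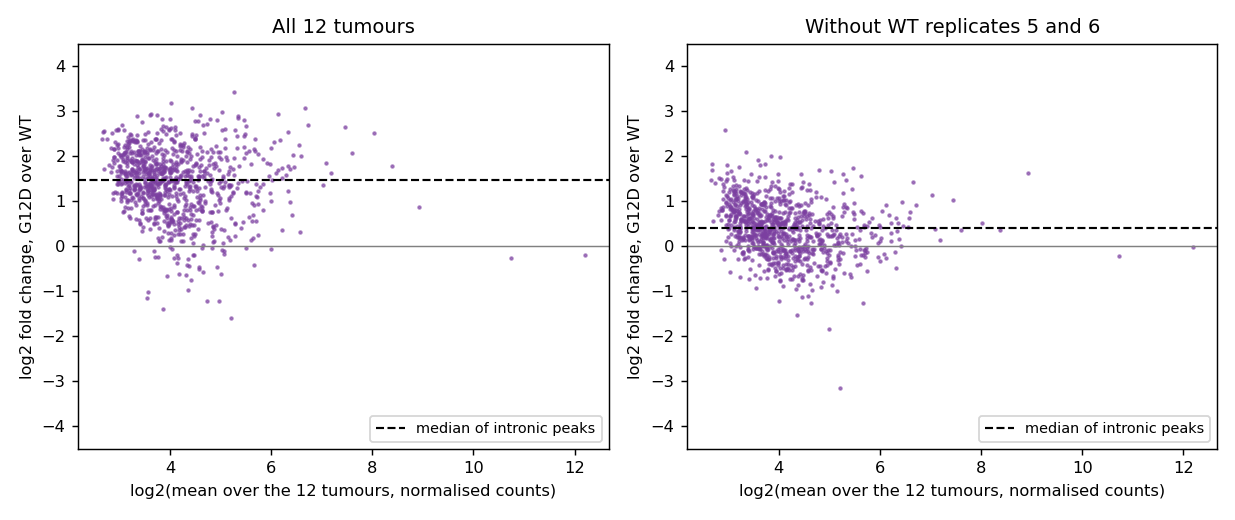
Log2 fold change, G12D over WT (limma, log2(value + 1)), of each intronic peak (y axis) against the log2 of its mean over the 12 tumours (x axis), from all 12 libraries (left) and without WT replicates 5 and 6 (right). The dashed intronic median is 1.47 on the left and 0.40 on the right.

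DESeq2 on the recovered reads, the alternative count test, called 101 intronic peaks higher (10.1% of all tested peaks were called) and 4 lower (0.359%) at an adjusted p of 0.05. The share of intronic peaks was near that background. EdgeR called 0. The authors' deposited table gave 99 intronic peaks as higher and 4 as lower at an adjusted p under 0.05, of 910 with a value. Without WT replicates 5 and 6, DESeq2 called 7 intronic peaks higher (0.763%, against 2.12% of all tested peaks) and 1 lower (0.109%, against 0.16%). Of these 8, 6 were also called with all 12 libraries. The 7 were in Xpo7, RP24-342G5.6, RP23-468D17.1, Mgam2-ps, AC162528.2 and, with 2 peaks, Plekha6, and the lower one was in Bcr. These genes were named after their values were seen.

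Plekha6 had the most DESeq2 calls of any host, 4 of its 5 peaks, where 10.1% of all tested peaks were called higher. Peaks of 1 host share its RNA and the libraries, so these calls were not independent. Without WT replicates 5 and 6, Plekha6 kept 2 of them. Its highest peak had 16.6, 55.2 and 96.6 in G12D tumours, against 0, 4.69 and 32.1 in WT tumours (DESeq2 log2 fold change 2.21, adjusted p = 0.00865; limma adjusted p = 0.108). The groups overlapped, and the limma log2 fold change was 2.98 with all libraries and 1.67 without WT replicates 5 and 6. In G12D tumours this peak had 16.6 to 41.7 in batch 1 and 68.8 to 96.6 in batch 2. Xpo7 had a DESeq2 log2 fold change of 2.5 (adjusted p = 0.0104) and Tspan14 one of 2.63 (adjusted p = 0.0401). Their limma values were 3.08 and 2.70 with all libraries, and 1.42 and 0.91 without WT replicates 5 and 6.

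The other peaks with a mean of at least 20 and the largest DESeq2 changes had adjusted p-values between 0.0153 and 0.046. They lay in Alcam, an adhesion molecule (2.51), Zfp292 (2.54), Esyt2, a tether between endoplasmic reticulum and plasma membrane (2.44), the transcription factor Nfib (2.34), the diacylglycerol kinase Dgkz (2.22), Acvr1b (2.20) and the cohesin subunit Stag1 (2.17). The Alcam peak had 4.15, 38.1 and 303 in G12D tumours, against 0, 5.20 and 29.1 in WT tumours. The Dgkz peak had 4.34, 60.8 and 160 in G12D tumours, against 0, 0.559 and 46.9 in WT tumours. Each overlapped between the groups, with at least 1 WT tumour at 0. In each, every G12D value of batch 2 was above every G12D value of batch 1.

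The 2 lower peaks with a mean of at least 20 had their high values in WT replicates 5 and 6. The Dst peak, in the gene of a cytoskeletal linker, had 0.965, 2.19 and 12.0 in G12D tumours, against 0, 6.15 and 140 in WT tumours (DESeq2 log2 fold change -2.48, adjusted p = 0.0384). The AC130827.2 peak had 0.965, 9.92 and 29.9 in G12D tumours, against 3.35, 9.34 and 154 in WT tumours (-1.85, adjusted p = 0.0449). In Dst those libraries had 140 and 140, and the other WT tumours at most 6.42. In AC130827.2 they had 118 and 154, and the other WT tumours at most 9.88. Only 4 intronic peaks (0.434%) had all 6 G12D tumours above every WT tumour, against 1.7% of all tested peaks, and they lay in Pgap1, a remodeller of GPI anchors, Mecom, Mgam2-ps and AC162528.2. Mecom did not go 1 way, as another of its intronic peaks was among the 4 that DESeq2 called lower. The Pgap1 peak had 17.4, 21.5 and 23.1 in G12D tumours, against 0, 5.5 and 13.3 in WT tumours.

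The intronic share of all signal in annotated peaks was 7.88 ± 1.51% in G12D and 11.1 ± 8.36% in WT tumours (SD, n = 6 each), a difference of -3.18 points (exact two-sided permutation p = 0.567). In G12D tumours the lowest, median and highest were 6.59, 7.53 and 10.8%, against 5.76, 8.15 and 28.0% in WT tumours. WT replicate 5 alone was far above the rest, and its share was 11.9% without the Gphn peak and 7.33% without the 2 highest peaks. The difference was 0.00131 points in batch 1 and -6.36 in batch 2. Relative to the same gene's 3' UTR peaks, intronic signal was at a log2 difference of -0.56 ± 0.36 in G12D and -0.68 ± 0.43 in WT tumours, a difference of 0.13 (exact permutation p = 0.584).

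Host genes were also read against lists of genes by role. Of 34 genes of the microRNA machinery, 23 had any peak and 6 an intronic one, which were Dgcr8, Cnot7, Cnot6l, Pan3, Xpo5 and Tnrc6c, with 9 peaks and a median limma log2 fold change of 1.65. None of the 9 passed limma, and 1 was called higher by DESeq2, which called 10.1% of all tested peaks higher. Without WT replicates 5 and 6 the median was 0.45 and none of the 9 was called by DESeq2. With all 12 libraries the called peak was the one in Dgcr8, the partner of Drosha (DESeq2 log2 fold change 1.58, adjusted p = 0.0489). It had 46.8, 104 and 259 in G12D tumours, against 4.53, 30.4 and 110 in WT tumours. Its limma log2 fold change was 2.04 with all libraries and 0.99 without WT replicates 5 and 6. Cnot7, a deadenylase of the CCR4-NOT complex, had a let-7 8mer and 55.6, 71.5 and 227 in G12D tumours, against 9.06, 66.6 and 138 in WT tumours. Both peaks overlapped between the groups. The G12D values of Dgcr8 divided by batch (46.8 to 102 in batch 1, 107 to 259 in batch 2).

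Of 31 Wnt target genes, 8 had 21 intronic peaks with a median of 1.16, 0 past limma and 2 called higher by DESeq2, in Ephb2, a receptor that positions cells along the crypt, and Tcf7l2, a share near the 10.1% of all tested peaks. Without WT replicates 5 and 6 the median was 0.21 over 20 tested peaks, and DESeq2 called none of them. The highest was in Dkk2, a secreted Wnt regulator, with 0, 7.49 and 40.5 in G12D tumours, against 2.41, 36.8 and 222 in WT tumours (limma log2 fold change -1.59, adjusted p = 0.189, and -3.15 without WT replicates 5 and 6). Its WT tumours were higher at the median, and the groups overlapped. Axin2, the negative regulator that Wnt signals induce, had a peak with a let-7 8mer at a mean of 24.

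Of 44 Ras and MAPK genes, 25 had any peak and 4 an intronic one, among them Ksr1, Erbb3 and Spred1, with 5 peaks and a median of 2.09. None passed limma, and DESeq2 called 2 higher, against 10.1% of all tested peaks. Without WT replicates 5 and 6 the median was 0.93 and DESeq2 called none of the 5. With all 12 libraries DESeq2 called the peak in Spred1, an inhibitor of Ras signalling (adjusted p = 0.0431). It had 8.68, 33.9 and 78.4 in G12D tumours, against 0, 7.24 and 22.2 in WT tumours. The groups overlapped there.

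Of 36 colon epithelium genes, 30 had any peak and 7 an intronic one, with 10 peaks and a median of 1.30 (0.045 without WT replicates 5 and 6), none called by limma or DESeq2. The highest was in Hnf4a, a transcription factor of gut epithelium, with 18.5, 26.6 and 89.2 in G12D tumours, against 0, 22.0 and 37.9 in WT tumours. Of 26 fibroblast and smooth muscle genes 11 had a peak, of 25 leukocyte genes 1, and of 20 endothelium and nerve genes 2, and none of these lists had an intronic peak. Splicing factors had 6 intronic peaks in 5 of 46 genes (median 0.73, and 0.089 without WT replicates 5 and 6), the highest in Hnrnpa3 with a mean of 45.2. Of 44 snoRNA host genes, whose introns carry small RNAs, 23 had a peak and 0 an intronic one, and of 40 microRNA host genes 15 had a peak and 2 an intronic one, Lpp and Ctdspl, with 4 peaks in all (median 1.45, and 0.39 without WT replicates 5 and 6).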

How the data were processed

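Ago2-bound RNA was measured in 12 tumours, with miRNA, mRNA and input-control libraries from each, 36 samples in all; input libraries were not analysed here. Crosslinking used 3 UV doses of 400 mJ/cm2, per the labels' protocols. The submitters' processing notes name STAR 2.5.2b and DESeq2, with mm10 (GRCm38) as the build, without roles; the peak caller was not given in the sources used here, nor its filters. The signal values for merged peaks and miRNAs are read counts scaled by the authors with 1 size factor for each library. Column names give genotype and number without a library type, and here they stand for the mRNA libraries. The deposited log2 fold changes and the deposited adjusted p-values are the authors' own comparison. The score of each peak in the deposited lists has no stated unit and was not used for any value, and region, gene and seed sites are the authors' annotation. Peak width was computed from the deposited coordinates.

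Reads were recovered from the steps of the values within a tolerance of 0.001 reads. Peaks with a mean of at least 5 were fitted with limma 3.58.1 (log2(value + 1), batch as covariate, Benjamini-Hochberg over all tested peaks, threshold 0.05) in R 4.3.3. EdgeR 4.0.16 and DESeq2 1.42.0 ran on the recovered reads as alternatives, with an adjusted p that DESeq2 gave as NA left out. The fits were tested on simulated data. Ratios and shares used exact permutation tests over tumours, two-sided, with a smallest p of 0.00216 for 6 against 6. Intervals are 95% Wilson intervals. Host genes were matched to RefSeq by gene ID or symbol.

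Named peaks were the 12 of highest mean, those of the 8 genes with most peaks, up to 10 called in each direction with a mean of at least 20 (by DESeq2, as limma called none), the highest of each gene list and each of the 6 leading families, and the 6 smallest and 6 largest coefficients of variation at a mean of at least 50; others were named after their values were seen. Members, lists and tests were chosen with earlier results of these data known. No label ties each numbered sample to its own mouse, so the spread behind the p-values may be in part technical. Some peaks that this rule or a list would name are not reported here.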

Additional observations from a re-analysis of the deposited data

Results flagged for a closer look

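In 5 of 98 groups of 6 values tested, the highest or lowest tumour stood apart from the rest of its genotype by a Dixon test at 95%. A chance rate of 1 in 20 holds for independent groups. These groups share the 12 libraries and some peaks were picked for their spread, so the count cannot be set against that rate. WT replicate 5 held 0 normalised counts of the Zfp148 intronic peak, where its genotype otherwise ranged between 43.4 and 376. It held 4.53 of the Prss32 peak, where the range was 53.8 to 107. The intronic share of peak signal reached 28.0% in WT replicate 5, with the 5 remaining WT tumours between 5.76% and 8.49%. It was 10.8% in G12D replicate 3, against 6.59% to 7.97% in the other G12D tumours. The log2 difference of median intronic from median exonic signal was -2.54 in WT replicate 6, and its genotype otherwise lay between -0.79 and 0. WT replicates 5 and 6 were the 2 shallowest libraries, and the part of depth in these values was not tested.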

How the results depend on the processing

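The 4 differences of intronic from exonic and 3' UTR signal kept their direction and their side of the threshold under all 16 alternatives each. The count of intronic peaks past the adjusted threshold was 0 with limma and all libraries. With limma it was 105 with a pseudocount of 5 and 38 in batch 2 alone. It ran from 0 to 467 when 1 library was left out, with 467 without WT replicate 4. These settings also called many peaks outside introns. With a pseudocount of 5, 11.4% of intronic and 6.72% of all tested peaks were called higher. In batch 2 alone the shares were 4.39% and 3.55%, and without WT replicate 4 they were 50.6% and 45.1%. DESeq2 called 105 intronic peaks with all libraries and 8 without WT replicates 5 and 6, with the background shares given above. The median log2 fold change was -0.10 after centring each library on its median peak, which was 0 in WT replicate 5. The genotype difference in the intronic share was 0.0305 points without the highest peak and WT replicates 5 and 6 (exact permutation p = 0.967) and ran from -4.24 to 0.206 points when 1 library was left out, with 0.206 without WT replicate 5. Same-numbered G12D and WT tumours had correlated deviations between -0.11 and 0.65, and 1 of 6 numbers correlated best with its own, so numbers were not taken to pair tumours. With the number as a replicate block, 0 intronic peaks passed, the median stayed at 1.47, the share differed by -3.18 points (exact permutation p = 0.594) and the within-gene 3' UTR difference by 0.13 (p = 0.594, exact permutation). DESeq2 without WT replicates 5 and 6, and the share without the highest peak and those libraries, were chosen after seeing the data. Low counts in WT replicates 5 and 6 limit every genotype comparison of low intronic peaks.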

Other observations

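Several intronic peaks held repeated sites of 1 family, as annotated by the authors. In 37 intronic peaks a family had 2 or more sites, and in 13 it had 3 or more. The peak in Ipmk, an inositol phosphate kinase, had 7 miR-196 sites at a mean of 12.7 normalised counts, and that in Tnrc6c, an Argonaute partner that carries out repression, had 6 let-7 sites at 13.3. The RP23-81N4.4 peak had 7 sites of the miR-15/16 family at 7.51. Each of the 3 was a low peak.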
